A study of Homo sapiens with 5 samples.

Results

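Among 10 genes for ubiquitin ligases that destroy regulators of the G1/S transition, the mRNAs of SKP2, CUL4A and DTL fell 48 hr after FAM53C knock-down in RPE-1 cells, to 32.9%, 56.9% and 59.0% of the control level. The other 7 mRNAs did not pass the test. The genes were AMBRA1, DDB1, CUL4A, CUL4B, RBX1, DTL, FBXW7, SKP2, FBXO31 and CUL1. They were chosen by symbol for the role of their proteins, with earlier results of these data known. Each was found in 1 of the 64252 rows of the count table. All 10 passed the filter on low counts, which 15341 genes passed.

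RPE-1 is an immortalized human retinal pigment epithelial line. Its cells were transfected with 5 µM of a negative control siRNA (siCtrl, genotype WT in the labels, n = 3 libraries) or with 5 µM of a pool of siRNAs against FAM53C (siFAM53C, FAM53C KD in the labels, n = 2), and polyA RNA was sequenced after 48 hr. No untransfected library and no second cell line entered the comparison, and the pool was not resolved into its single siRNAs. The methods mention duplicates, whereas the labels give 3 controls, and all 5 libraries were used. The labels do not say whether libraries of a group came from separate cultures, so the p-values measure the spread between these libraries, which may be technical.

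The libraries held from 19260124 to 25615415 counts. FAM53C itself had 60.9, 59.7 and 57.6 CPM (counts scaled to a common library size) in siCtrl and 14.2 and 22.3 CPM in siFAM53C (log2 fold change -1.71, SE 0.19, adjusted p = 0.003625, edgeR quasi-likelihood, Benjamini-Hochberg), and its exons overlap genes on the opposite strand by 704 bases. In a principal component analysis of log2 CPM, the first component held 39.8% of the variance. On it siCtrl 3 (33.7) and siFAM53C 2 (44.9) stood apart from siCtrl 1 (-31.5) and siCtrl 2 (-47.4), with siFAM53C 1 (0.26) between them. Differences are therefore also given within each side: siFAM53C 1 minus siCtrl 1 and 2, and siFAM53C 2 minus siCtrl 3. The sides come from this component of the same counts and not from a label. Although siFAM53C 1 lay between, it was placed with siCtrl 1 and 2. Of the RPE and epithelial markers, KRT8 (259 CPM in siCtrl), KRT18 (168 CPM) and MITF (40.05 CPM) were present. VIM (3907 CPM in siCtrl), listed with them, is not particular to epithelial cells. RPE65 had 0 counts in every library (3 counts, the limit that a count of 0 allows, are 0.113 to 0.157 CPM per library). TYR, BEST1, RLBP1 and PMEL had group means under 1 CPM. Summed over 8 markers of blood, endothelial, liver and muscle cells the level was 1.05 to 1.27 CPM in siCtrl and 0.529 to 0.552 CPM in siFAM53C, and 4 of the 8 had 0 counts throughout. As the RNA is bulk, fewer cells of a cell cycle phase and less RNA per cell cannot be told apart.

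Cullin-RING ligases attach ubiquitin to proteins and so send them to the proteasome. A cullin scaffold holds the RING protein RBX1, which recruits the charged ubiquitin-conjugating enzyme, at one end and, through an adaptor, an exchangeable substrate receptor at the other. In SCF ligases the cullin is CUL1, the adaptor is SKP1 and the receptor is an F-box protein such as SKP2, FBXW7 or FBXO31. In CRL4 ligases the cullin is CUL4A or CUL4B, the adaptor is DDB1 and the receptor is a protein such as DTL or AMBRA1. AMBRA1 and FBXO31 target D-type cyclins, FBXW7 targets cyclin E and MYC, SKP2 targets the CDK inhibitor CDKN1B, and DTL targets CDT1 and CDKN1A on replicating DNA, so the receptors act on both activators and inhibitors of S phase entry.

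The members differed in abundance. On the scale of CPM per kb of the MANE Select transcript, the control levels were in the order DDB1 (76.7 ± 4.71, SD, n = 3), RBX1 (49.1 ± 6.93), CUL4B (36.6 ± 1.18), CUL1 (35.5 ± 1.07), CUL4A (28.4 ± 1.85), DTL (20.2 ± 0.337), SKP2 (16.9 ± 1.35), AMBRA1 (6.43 ± 0.456), FBXO31 (5.26 ± 0.562) and FBXW7 (3.19 ± 0.161). CUL4B and CUL1 were the only neighbours in this order whose siCtrl values overlapped. The adaptor and the scaffolds thus stood above the 5 receptors in siCtrl on this scale. The order depends on the length used, because counts are per gene while the length is that of 1 transcript. All annotated exons of CUL4B span 33815 bases, against 5915 in its MANE Select transcript. For DTL these lengths are 4923 and 4409 bases. In siFAM53C the level per kb was 16.1 ± 0.058 (SD, n = 2) for CUL4A, 11.9 ± 0.460 for DTL and 5.55 ± 0.687 for SKP2, the last below AMBRA1 (7.51 ± 1.22) in both libraries and overlapping FBXO31 (5.98 ± 0.152), with SKP2 at 6.03 and 5.06 and FBXO31 at 5.87 and 6.09.

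**Figure D1:**
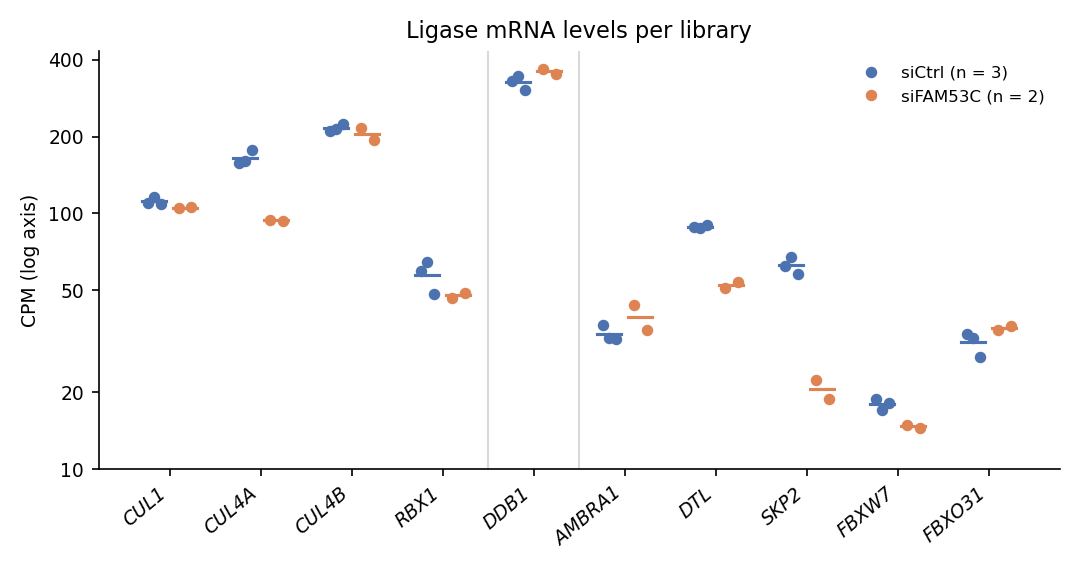
CPM (log axis) of each ligase gene in each library, with the group mean as a horizontal line, in siCtrl (blue, n = 3) and siFAM53C (orange, n = 2); grey lines separate scaffolds and RBX1, the adaptor DDB1, and the 5 receptors. The siFAM53C points of SKP2 (18.8 and 22.4 CPM), CUL4A (93.7 and 94.2 CPM) and DTL (51.0 and 53.9 CPM) lie apart from and below all their siCtrl points.

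In the edgeR quasi-likelihood fit, where a gene was called at a Benjamini-Hochberg adjusted p under 0.05, 3 of the 10 members were lower in siFAM53C and 0 were higher, also at an unadjusted p under 0.05. Over all genes tested, 3.47% were called lower and 0.489% higher (533 and 75 genes; 415 and 121 when libraries were scaled by their totals alone). At the unadjusted p, 10.5% of all genes were lower and 6.61% higher. The median log2 fold change was -0.18 over the members and 0.016 over all genes. In 5 members (SKP2, CUL4A, DTL, FBXW7 and CUL1) both siFAM53C values were below all 3 siCtrl values, and in 2 (DDB1 and FBXO31) above them, where 18.8% of all genes were lower and 16.7% higher without overlap.

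**Figure D2:**
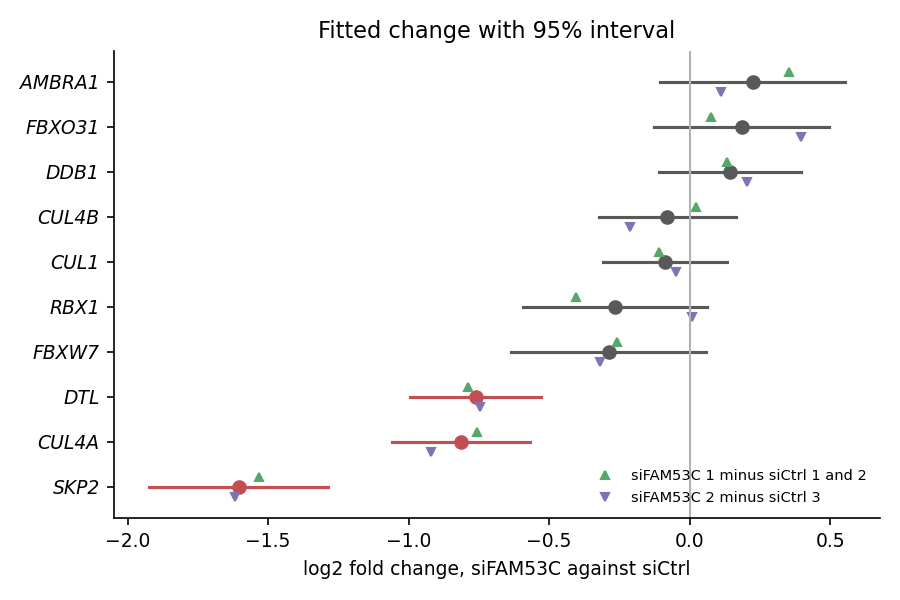
Log2 fold change of each ligase gene (large points) with its 95% interval (lines), red where the adjusted p was under 0.05; triangles give the differences within each side of the library split. SKP2 (-1.60), CUL4A (-0.81) and DTL (-0.76) are the members whose intervals lie below 0, and both triangles of each also lie below 0.

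SKP2, the F-box receptor of SCF that targets CDKN1B, changed most. It had 62.3, 67.9 and 57.9 CPM in the siCtrl libraries and 22.4 and 18.8 CPM in the siFAM53C libraries, from 1468, 1297, 1105, 593 and 443 counts. Both siFAM53C libraries were far below the lowest control, siCtrl 3. The mean was 62.7 ± 5.00 (SD, n = 3) against 20.6 ± 2.55 (SD, n = 2) CPM, and the log2 fold change -1.60 (SE 0.14, 95% interval -1.92 to -1.29, adjusted p = 0.001138, edgeR quasi-likelihood, Benjamini-Hochberg). Ordered from the most negative value, it ranked 162 of 15341 genes. Within the sides the differences were -1.53 and -1.62. SKP2 (ENSG00000145604) lies on chromosome 5 of GRCh38, from 36151989 to 36196849 on the plus strand, and its exons overlap those of NADK2 on the opposite strand by 365 bases. By the methods the alignment was run as reverse-stranded, and the strand setting of the counting is not given in the sources used here, so values of genes with such overlaps are uncertain.

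DTL, also called CDT2, is the CRL4 receptor that binds its substrates on PCNA during replication. It had 88.6, 87.5 and 90.5 CPM in siCtrl and 51.0 and 53.9 CPM in siFAM53C (2088, 1673, 1727, 1349 and 1269 counts). The controls lay close together and the groups did not overlap. From 88.9 ± 1.48 (SD, n = 3) to 52.4 ± 2.03 (SD, n = 2) CPM, the log2 fold change was -0.76 (SE 0.10, 95% interval -0.996 to -0.53, adjusted p = 0.006995, edgeR quasi-likelihood, Benjamini-Hochberg). The differences within the sides were -0.79 and -0.75. The call did not hold without siCtrl 2 (-0.77, adjusted p = 0.0511, edgeR), siFAM53C 1 (-0.73, adjusted p = 0.09109) or siFAM53C 2 (-0.80, adjusted p = 0.05581), while the value moved little. DTL (ENSG00000143476) lies on chromosome 1, from 212035553 to 212107400 on the plus strand, with 5 exon bases shared with INTS7 on the opposite strand.

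CUL4A is one of the paired scaffolds of CRL4. It had 158, 160 and 178 CPM in siCtrl and 94.2 and 93.7 CPM in siFAM53C (3728, 3053, 3390, 2492 and 2208 counts), so that both knock-down libraries were well below the controls and close to each other. The mean was 165 ± 10.8 (SD, n = 3) against 93.9 ± 0.338 (SD, n = 2) CPM, and the log2 fold change -0.81 (SE 0.11, 95% interval -1.06 to -0.57, adjusted p = 0.00637, edgeR quasi-likelihood, Benjamini-Hochberg). Within the sides it differed by -0.75 and -0.92. Without siFAM53C 1 (-0.82, adjusted p = 0.079, edgeR) or siFAM53C 2 (-0.81, adjusted p = 0.06646) it was not called. CUL4A (ENSG00000139842) lies on chromosome 13, from 113208193 to 113267108 on the plus strand, and shares 437 exon bases with PCID2 on the opposite strand.

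The number of members called lower was 2 without siCtrl 2, and 1, SKP2, without siFAM53C 1 or without siFAM53C 2. Each of the last 2 fits rests on a lone siFAM53C library that is assumed to vary like the controls.

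CUL4B, the other CRL4 scaffold, is encoded on the X chromosome. It had 210, 215 and 224 CPM in siCtrl and 216 and 193 CPM in siFAM53C, with siFAM53C 1 inside the control range and siFAM53C 2 below it. The log2 fold change was -0.079 (SE 0.11, 95% interval -0.32 to 0.17, adjusted p = 0.7816, edgeR quasi-likelihood, Benjamini-Hochberg). The ratio of CUL4A to CUL4B CPM, which does not depend on the library scaling, was 0.753, 0.744 and 0.793 in siCtrl and 0.436 and 0.485 in siFAM53C, a difference of -0.73 on the log2 scale. Both siFAM53C ratios were below all control ratios. In each of the 3 ratios examined, the numerator is a member called lower and the denominator a member not called. The ratios thus restate the values of the single genes and are not separate support for them. With 2 of 5 libraries there are 10 assignments, so the two-sided exact permutation p of 0.1 is the smallest that the design allows, and it stayed 0.1 after Benjamini-Hochberg adjustment over the 3 ratios examined.

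CUL1, the SCF scaffold, had 110, 116 and 109 CPM in siCtrl and 105 and 106 CPM in siFAM53C. The groups did not overlap, but the gap was small, with a log2 fold change of -0.088 (SE 0.096, 95% interval -0.31 to 0.13, adjusted p = 0.7223, edgeR quasi-likelihood, Benjamini-Hochberg). RBX1, the RING subunit of both ligase classes, had 59.3, 64.4 and 48.5 CPM in siCtrl and 46.7 and 48.8 CPM in siFAM53C. The siFAM53C libraries lay near siCtrl 3, and the groups overlapped. Its log2 fold change was -0.26 (SE 0.14, 95% interval -0.59 to 0.062, adjusted p = 0.3982, same edgeR test), with -0.40 within the side of siCtrl 1 and 2 and 0.0099 within that of siCtrl 3.

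DDB1, the adaptor that joins CUL4 to its receptors, was the most abundant member per kb of the MANE Select transcript. It had 328, 344 and 304 CPM in siCtrl and 368 and 350 CPM in siFAM53C, with both siFAM53C libraries above the controls. The log2 fold change was 0.14 (SE 0.11, 95% interval -0.11 to 0.40, adjusted p = 0.5837, edgeR quasi-likelihood, Benjamini-Hochberg). The ratio of the receptor DTL to DDB1 was 0.270, 0.254 and 0.297 in siCtrl and 0.138 and 0.154 in siFAM53C, a log2 difference of -0.91 with no overlap (exact permutation p = 0.1, the smallest possible). DDB1 shares 493 exon bases with TKFC on the opposite strand.

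Of the other 3 receptors, none passed the test. FBXW7, the SCF receptor for cyclin E, MYC, JUN and NOTCH1, had 18.8, 17.0 and 18.1 CPM in siCtrl and 14.9 and 14.5 CPM in siFAM53C. Both siFAM53C values were below all controls, at a log2 fold change of -0.29 (SE 0.15, 95% interval -0.63 to 0.057, adjusted p = 0.3831, edgeR quasi-likelihood, Benjamini-Hochberg). The ratio of SKP2 to FBXW7 was 3.31, 3.99 and 3.19 in siCtrl and 1.501 and 1.30 in siFAM53C, a log2 difference of -1.32 (exact permutation p = 0.1, the smallest possible), so that both siFAM53C libraries were below every control.

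AMBRA1, the CRL4 receptor for D-type cyclins, had 36.5, 32.4 and 32.3 CPM in siCtrl and 43.95 and 34.9 CPM in siFAM53C. siFAM53C 1 was the highest library and siFAM53C 2 lay within the control range, so the groups overlapped. The log2 fold change was 0.22 (SE 0.14, 95% interval -0.10 to 0.55, adjusted p = 0.486, edgeR quasi-likelihood, Benjamini-Hochberg). FBXO31, an SCF receptor for cyclin D1, had 33.8, 32.5 and 27.5 CPM in siCtrl and 35.0 and 36.2 CPM in siFAM53C. Both siFAM53C libraries were above the controls by a small margin, at a log2 fold change of 0.19 (SE 0.13, 95% interval -0.13 to 0.50, adjusted p = 0.5555, same edgeR test). FBXO31 shares 629 exon bases with genes on the opposite strand, among them MAP1LC3B, and 388 with a gene on its own strand, whereas AMBRA1 shares 0.

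The 7 members that did not pass the test lie, on GRCh38, on chromosome X from 120505920 to 120604074 (CUL4B, ENSG00000158290, minus strand), chromosome 7 from 148697914 to 148801110 (CUL1, ENSG00000055130, plus), chromosome 22 from 40951347 to 40973309 (RBX1, ENSG00000100387, plus), chromosome 11 from 61299451 to 61342596 (DDB1, ENSG00000167986, minus) and from 46396414 to 46594125 (AMBRA1, ENSG00000110497, minus), chromosome 4 from 152320544 to 152536092 (FBXW7, ENSG00000109670, minus) and chromosome 16 from 87326987 to 87392142 (FBXO31, ENSG00000103264, minus). All 10 genes are annotated as protein coding. The exons of CUL1 and FBXW7 overlap those of genes on the opposite strand by 461 and 244 bases, and those of CUL4B and RBX1 by 0.

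**Figure D3:**
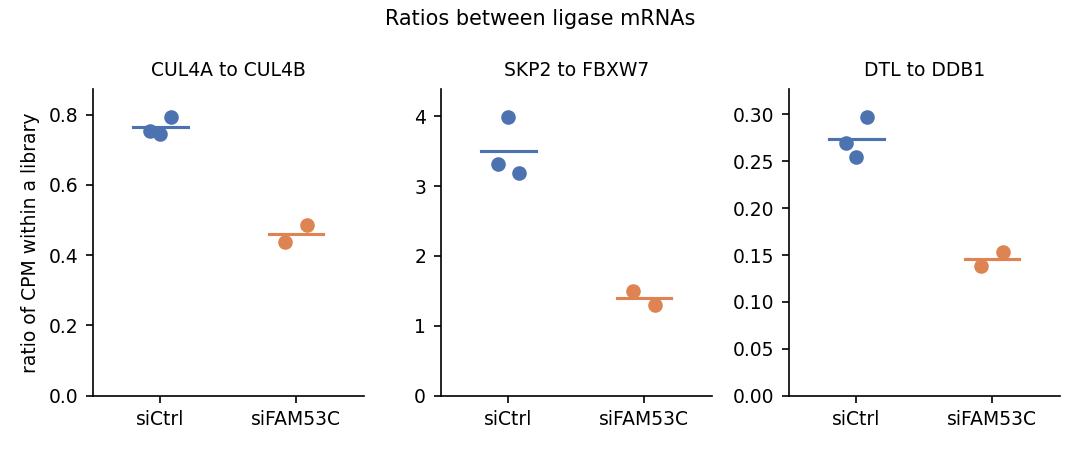
Ratio of CPM within a library for 3 pairs of ligase genes, each point a library and each line a group mean, with axes that start at 0. In every pair both siFAM53C points lie below the 3 siCtrl points, for CUL4A to CUL4B at 0.436 and 0.485 against 0.744 to 0.793. Each numerator is a member called lower, so the ratios restate the values of the single genes.

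The start regions of the 3 members called lower are shown. DTL is a known target of the E2F factors, which drive S phase genes. Whether the 3 values share a cause was not tested. Sequences are from RefSeq on GRCh38.p14, 250 bases before to 50 bases after the start, on the plus strand, and all 10 members had an entry. Capitals mark the E2F letters (TTTCCCGC, TTTGGCGC, TTTCGCGC or TTTGCCGC), CCAAT, the CHR letters TTTGAA and the GC box GGGCGG, all read on both strands, with overlapping matches counted each.
DTL, chr1:212035498-212035797: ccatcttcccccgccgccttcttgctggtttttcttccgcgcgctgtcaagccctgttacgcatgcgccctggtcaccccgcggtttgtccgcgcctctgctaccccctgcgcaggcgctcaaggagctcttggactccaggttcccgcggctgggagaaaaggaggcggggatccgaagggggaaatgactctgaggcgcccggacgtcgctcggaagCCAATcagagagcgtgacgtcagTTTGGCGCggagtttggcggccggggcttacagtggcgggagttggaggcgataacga
SKP2, chr5:36151861-36152160: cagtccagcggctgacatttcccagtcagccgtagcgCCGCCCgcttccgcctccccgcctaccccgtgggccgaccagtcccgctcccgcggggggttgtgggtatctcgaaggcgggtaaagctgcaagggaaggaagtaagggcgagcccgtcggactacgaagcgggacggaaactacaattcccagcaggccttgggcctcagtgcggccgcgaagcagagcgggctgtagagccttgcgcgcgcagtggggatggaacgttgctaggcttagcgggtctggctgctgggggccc
CUL4A, chr13:113209363-113209662: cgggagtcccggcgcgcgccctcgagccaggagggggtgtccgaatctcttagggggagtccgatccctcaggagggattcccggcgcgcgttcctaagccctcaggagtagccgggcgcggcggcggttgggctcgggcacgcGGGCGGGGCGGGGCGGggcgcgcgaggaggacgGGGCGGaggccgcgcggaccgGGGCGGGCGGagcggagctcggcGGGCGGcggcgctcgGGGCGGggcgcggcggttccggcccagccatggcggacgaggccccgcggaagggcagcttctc
DTL held TTTGGCGC from 8 bases before the start and CCAAT from 31 bases before it, and was the only member with either in this window. SKP2 held 1 GC box, 213 bases before the start, and CUL4A held 8. No member held TTTGAA in the window. Of 35116 promoters of the same length, 3.32% held an E2F motif as spelled here, 34.6% CCAAT, 15.2% TTTGAA and 45.0% a GC box. A match is a description of these letters and not a bound site. Nor does the lack of a match in this window show that a gene is not a target of E2F factors.

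SKP2, CUL4A and FBXW7 also share a heptamer, GACAAGA, in the 3' UTR of their MANE Select transcripts. This heptamer was singled out in an earlier analysis of the same counts, so its link to lower values is not independent of them. Its sites are shown with 10 bases on either side and the heptamer in capitals, 5′ to 3′ on the strand of the gene, from GRCh38.
SKP2, chr5:36183836-36183862, plus strand: acagattagtGACAAGAgctggggtta
CUL4A, chr13:113263833-113263859, plus strand: tttgagattgGACAAGAagatgttact
FBXW7, chr4:152322671-152322697, minus strand: aaccataactGACAAGAgaggcgtctg
The heptamer was in 10.6% of 12009 tested genes with a MANE Select 3' UTR. Of the genes with it, 16.7% were called lower in siFAM53C, and of those without it, 2.88%. These shares were not adjusted for the length of the 3' UTR. The MANE Select 3' UTRs of the other 7 members, DTL among them, lack it, although a longer isoform of CUL4B holds it. The 3' UTR of FAM53C, the targeted gene, also holds it. The siRNA sequences are not given in the sources used here. The part of this heptamer in the values of SKP2, CUL4A and FBXW7 was not tested.

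The profile of each receptor over the 5 libraries was compared with those of 9300 genes with a mean of at least 10 CPM, by the Euclidean distance between log2 CPM values centred on each gene's mean. The nearest genes to SKP2 were MYO10 (distance 0.16, log2 fold change -1.58) and BTBD1 (0.19, -1.56). Those nearest to DTL were PPAT (0.051, -0.73) and BRCC3 (0.069, -0.73). FBXW7 was nearest to CETN3 (0.028) and TNIP1 (0.049), AMBRA1 to TBC1D2B (0.056) and CIC (0.074), and FBXO31 to ABHD17A (0.022) and PGAP6 (0.054). For comparison, the length of the centred profile itself was 1.77 for SKP2, 0.84 for DTL, 0.36 for AMBRA1, 0.33 for FBXW7 and 0.31 for FBXO31. With 5 libraries these distances mostly follow the size of the change.

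Around the members, 108 companion genes in 8 lists cover other subunits of these ligases, the enzymes that feed and recycle them, and their substrates. Of these, 106 were tested, and 8 were called lower and 0 higher in the edgeR quasi-likelihood fit, Benjamini-Hochberg adjusted (17 and 7 at an unadjusted p under 0.05), with a median log2 fold change of -0.035. Against 3.47% lower over all genes, the companions' count is 8 of 106, in lists chosen with earlier results of these data known.

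Among the 18 CRL4 partners (further receptors and DDA1, DET1 and COP1), 0 passed the test (1 lower and 1 higher at an unadjusted p), with a median of 0.062. The largest value was that of ERCC8, the receptor that acts in transcription-coupled repair, at 11.1, 14.7 and 12.0 CPM in siCtrl and 7.975 and 5.18 CPM in siFAM53C (log2 fold change -0.94, SE 0.25, adjusted p = 0.1022, edgeR). The groups did not overlap. Among 12 SCF partners 1 was lower, BTRC, the F-box receptor for phosphorylated CTNNB1 and NFKBIA, with 39.8, 36.0 and 39.7 CPM in siCtrl and 26.003 and 22.5 CPM in siFAM53C (log2 fold change -0.67, SE 0.13, adjusted p = 0.0343, edgeR). The median of this list was -0.071, and at an unadjusted p 1 gene was lower and 1 higher.

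Of 6 other cullins and RING proteins, CUL2, the scaffold of the VHL ligase, was lower, at 75.7, 90.5 and 77.6 CPM in siCtrl and 49.4 and 43.6 CPM in siFAM53C (log2 fold change -0.80, SE 0.13, adjusted p = 0.0151, edgeR quasi-likelihood, Benjamini-Hochberg). Both siFAM53C libraries lay far below the controls. At an unadjusted p, 1 gene of the list was lower and 2 were higher, CUL9 (0.45, adjusted p = 0.2626) and CUL7 (0.27, adjusted p = 0.287, edgeR), both named after their values were seen. CUL3 and CUL5 had values of -0.074 and 0.032 with overlapping groups, and the median of the list was -0.021.

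Cullins are switched on by attachment of NEDD8 and switched off by the COP9 signalosome. Of the 22 genes of this cycle, 2 were lower and 0 higher (6 and 0 at an unadjusted p), with a median of -0.069. DCUN1D4, a NEDD8 ligase factor, had 51.1, 61.4 and 50.1 CPM in siCtrl and 20.0 and 22.3 CPM in siFAM53C (log2 fold change -1.36, SE 0.14, adjusted p = 0.00236, edgeR quasi-likelihood, Benjamini-Hochberg). NAE1, a subunit of the NEDD8-activating enzyme, had 69.4, 81.1 and 68.5 CPM in siCtrl and 49.2 and 45.9 CPM in siFAM53C (log2 fold change -0.62, SE 0.12, adjusted p = 0.0342, edgeR). Neither overlapped between the groups.

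Of 9 genes that supply ubiquitin to these ligases, ARIH1, an RBR ligase that works with neddylated cullins, was lower, with 66.5, 78.2 and 88.3 CPM in siCtrl and 41.7 and 45.4 CPM in siFAM53C (log2 fold change -0.83, SE 0.14, adjusted p = 0.0213, edgeR). The list's median was -0.075, and at an unadjusted p 1 gene was lower and 1 higher. The higher gene was CDC34, the ubiquitin-conjugating enzyme of SCF, with 70.0, 56.7 and 50.3 CPM in siCtrl and 93.3 and 86.8 CPM in siFAM53C (log2 fold change 0.61, SE 0.15, adjusted p = 0.07279, edgeR). It was named after its values were seen, its groups did not overlap, and it differed by 0.57 and 0.78 within the sides. A list of 19 genes covered the APC/C, the ligase that destroys mitotic cyclins and keeps SKP2 low in G1. It also held the ubiquitin-conjugating enzymes UBE2C and UBE2S and the inhibitor FBXO5. Of this list, 3 APC/C subunits were lower and 0 genes higher (5 and 0 at an unadjusted p), with a median of -0.076. The subunits were CDC23 (log2 fold change -0.67, adjusted p = 0.0159), ANAPC13 (-0.73, adjusted p = 0.0492) and CDC27 (-0.53, adjusted p = 0.0404, edgeR quasi-likelihood, Benjamini-Hochberg). UBE2S, named after its values were seen, had the lowest value of the list (-0.735, adjusted p = 0.0523, edgeR) and was not called. The 3 deubiquitinases had 0 calls, and the largest value was that of USP28, which opposes FBXW7, at -0.53 (adjusted p = 0.1107, edgeR). USP28 and ERCC8 were called lower with DESeq2, with no filter on low counts and with a term for the library side in the model. Both were also called lower with a replicate block that pairs libraries by the numbers in their descriptions. Each of these settings also called more of all genes than the main fit.

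Of the 8 companion genes called, DCUN1D4 was called in each of the 16 alternatives. The others lost the call in at least 1 fit that left out a library, BTRC, NAE1, CDC27 and ANAPC13 also with library totals as the scaling, CDC27 and ANAPC13 without robust dispersions, and ANAPC13 with limma-voom, RLE size factors or a filter at 1 CPM. The number of companions called lower was 2 without siCtrl 1, 1 without siCtrl 2, 12 without siCtrl 3, 1 without siFAM53C 1 and 2 without siFAM53C 2. The heptamer GACAAGA was in the MANE Select 3' UTR of 10 of the 106 tested companions and of 3 of the 8 called lower, BTRC, DCUN1D4 and CDC23, and its part in their values was not tested. CUL2, ARIH1 and ERCC8 overlap exons of other genes on their own strand by 540, 2252 and 1643 bases, so their counts are less certain. Overlaps with exons on the opposite strand were 685 bases for ARIH1, 455 for ANAPC13, 191 for CUL2 and 172 for ERCC8. They were 126 for CDC27, 74 for CDC23, and 0 for BTRC, NAE1 and DCUN1D4.

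**Figure D4:**
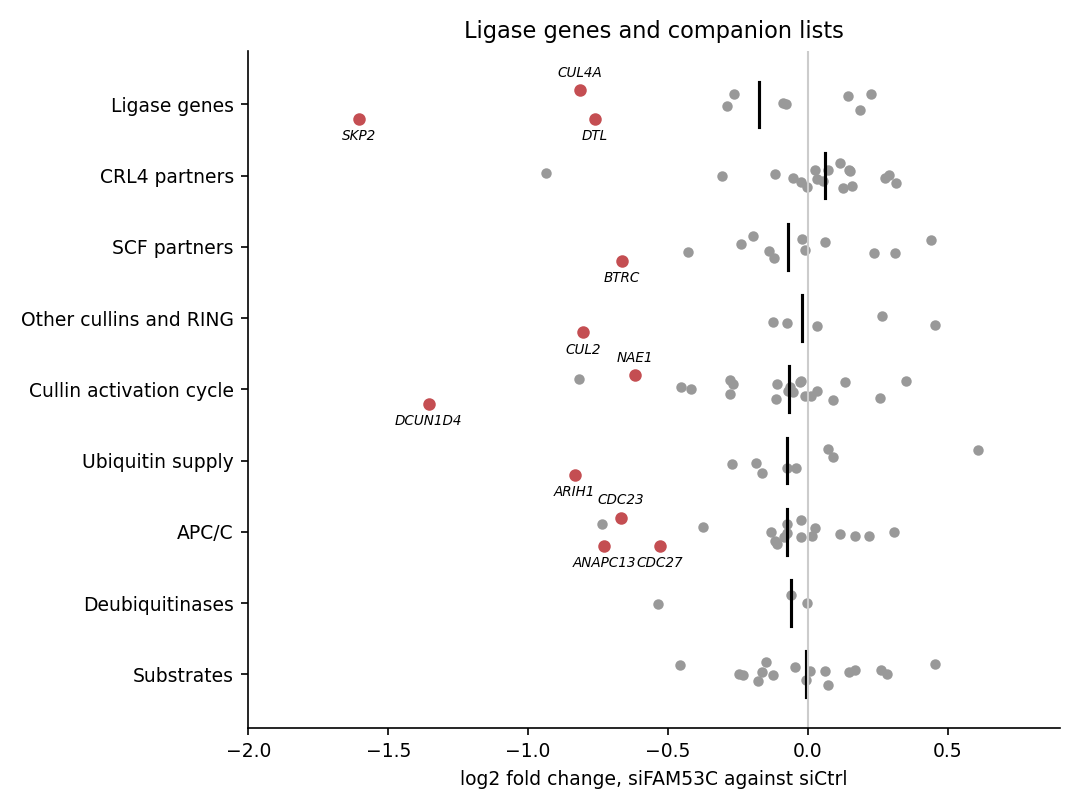
Log2 fold change of the 10 ligase genes and of 8 companion lists, each point a tested gene, red and named where the adjusted p was under 0.05, with the median of each list as a black line. The red points all lie below 0, from -1.60 (SKP2) to -0.53 (CDC27), and the medians lie between -0.18 and 0.062.

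The mRNAs of the substrates were also examined. As the ligases act on the proteins and not on these mRNAs, the values do not show what happened to the substrate proteins. Of 19 substrate genes 17 were tested, and 0 were called in either direction in the edgeR quasi-likelihood fit, Benjamini-Hochberg adjusted (at an unadjusted p under 0.05, 1 was lower and 2 were higher). The median log2 fold change was -0.0079. CCND2 and CDKN1C had too few counts to be tested.

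For the substrates of SKP2, CDKN1B had 122, 112 and 100 CPM in siCtrl and 144 and 161 CPM in siFAM53C. Both siFAM53C libraries were above the controls, at 0.45 on the log2 scale (SE 0.12, adjusted p = 0.0912, edgeR quasi-likelihood, Benjamini-Hochberg). ORC1, of the origin recognition complex, had 39.2, 42.3 and 36.6 CPM in siCtrl and 28.7 and 28.6 CPM in siFAM53C, at -0.46 (SE 0.12, adjusted p = 0.09688, edgeR) with no overlap. CDKN1B was called higher with DESeq2, with no filter, with the replicate block by descriptions and with the term for the library side. ORC1 was called lower with both replicate blocks, with that term and without siCtrl 3. Each of these settings also called more of all genes than the main fit. E2F1 had a log2 fold change of 0.28, with both siFAM53C libraries above the controls, and RBL2, a pocket protein that binds E2F factors, had -0.15 with overlap.

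For DTL, the substrate mRNAs gave log2 fold changes of 0.17 (CDT1), 0.15 (KMT5A, a histone methyltransferase) and 0.26 (CDKN1A). CDKN1A had 354, 331 and 182 CPM in siCtrl and 452 and 240 CPM in siFAM53C, low in siCtrl 3 and siFAM53C 2. Within each side it differed by 0.40. It was called higher with the term for the library side (0.40, adjusted p = 0.001623, edgeR) and with the replicate block by descriptions (0.38, adjusted p = 0.01049). With the replicate block by titles it was -0.054. The library sides were read from these same counts, so p-values from the term for the side are not independent of them. Over all genes the term for the side called 1636 lower and 1037 higher, and the block by descriptions 1350 and 642. The main fit called 533 and 75. For AMBRA1 and FBXO31, the D-type cyclins gave 0.061 (CCND1) and 0.070 (CCND3), and other substrates of FBXO31 gave -0.048 (FOXM1) and -0.13 (MDM2). For FBXW7, the values were -0.23 (CCNE1), -0.25 (CCNE2), -0.18 (MYC), -0.16 (JUN), -0.0079 (NOTCH1) and 0.0066 (MCL1). In these 13 genes the groups overlapped, with CCND1, for example, at 1648, 1675 and 1339 CPM in siCtrl and 1877 and 1364 CPM in siFAM53C.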

How the data were processed

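Paired reads were trimmed by the authors (cutadapt 2.10), aligned with HISAT2 to hg38, and assigned to genes by featureCounts. The deposited values are raw counts per Ensembl gene, not normalized. The methods give reverse strandedness for HISAT2, while the annotation release and the strand setting of the counting are not given in the sources used here.

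The counts as deposited entered edgeR 4.0.16 (R 4.3.3). Low genes were removed by filterByExpr, with a minimum count of 10 and a minimum total of 15, libraries were scaled by TMM, and siFAM53C was compared with siCtrl, with no covariate, by the quasi-likelihood test with robust dispersions. P-values were adjusted by Benjamini-Hochberg over all 15341 genes tested and called under 0.05. The procedure was checked on simulated counts, drawn with the same dispersion for every gene and with no split between libraries. That check therefore does not cover these features of the real counts. CPM are counts divided by the TMM-scaled library size, and log2 CPM used a prior count of 2. The totals of 19260124 to 25615415 counts limit precision for low genes. Symbols and positions are from GENCODE 44 (56105 of the 64252 identifiers matched), which may differ from the authors' annotation. Alternatives were DESeq2 1.42.0, limma-voom (limma 3.58.1), other size factors and filters, a replicate block, a term for the library side, leave-one-out fits and, chosen after seeing the data, dispersions without the robust option. The library sides were read from the first principal component of these same counts, so the term for the side also depends on the data. Ratios were compared by exact permutation.

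Samples were grouped by the treatment in the labels. The members and lists were chosen with earlier results of these data known. Named genes were the members, FAM53C, the called genes of each list or else the gene with the largest change, all substrates, and for each receptor the 2 genes of nearest profile.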

Additional observations from a re-analysis of the deposited data

How the results depend on the processing

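Over 16 alternatives SKP2 was called lower in each (log2 fold change -1.74 to -1.49, adjusted p 7.89e-23 to 0.01461). CUL4A (-0.84 to -0.74, adjusted p 2.208e-08 to 0.079) lost its call in 2 of them and DTL (-0.80 to -0.69, adjusted p 3.21e-07 to 0.09109) in 3, all fits without 1 library, and the other 7 members were called in none. No member changed sign. Members called lower numbered from 1 to 3 over the leave-one-out fits and 3 in every other alternative, and 0 were called higher in any. Companion genes called lower numbered 8, against 13 with DESeq2, 13 with no filter on low counts, 4 with library totals, 17 at an unadjusted p, 18 with the term for the library side and from 1 to 12 over the leave-one-out fits. Those called higher numbered 0, against 2 with DESeq2, 2 with no filter, 7 at an unadjusted p, 4 with the term for the library side and from 0 to 3 over the leave-one-out fits, the 3 without siCtrl 3. Over all genes the main fit called 533 lower and 75 higher. DESeq2 called 890 and 257, no filter 961 and 375, and library totals 415 and 121. At an unadjusted p the counts over all genes were 1607 and 1014, and with the term for the library side 1636 and 1037. The cause of these differences between settings was not tested. Without a library, fewer samples enter the fit, and over all genes the lower calls then numbered from 157 (without siFAM53C 1) to 886 (without siCtrl 3).

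Titles pair siCtrl and siFAM53C 1 and 2, whereas the descriptions number siFAM53C 2 as 3. The deviations of the pairs from their group means correlated at 0.17 (1 with 1) and -0.28 (2 with 2) by titles, and at 0.17 and 0.37 (3 with siFAM53C 2) by descriptions. In a group of 2 libraries the deviations are equal in size and opposite in sign. These correlations are therefore not separate evidence for each pair. No label says that a number marks a shared culture or day, and with 2 pairs in each numbering the pairing was not settled. The pair numbered 3 is also the pair that stood apart on the first component. Over all genes the block by descriptions called 1350 lower and 642 higher, and that by titles 856 and 355, against 533 and 75. With a replicate block by titles, 11 companions were lower and 3 higher, and with a replicate block by descriptions 17 were lower and 3 higher. Members called lower stayed at 3 in both.

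Of the substrates, CDKN1B gained a call with DESeq2 (adjusted p = 0.02776), no filter (0.0196), the block by descriptions (0.01027) and the term for the library side (0.002571). ORC1 gained one with the blocks by titles (0.04677) and descriptions (0.04266), that term (0.01199) and without siCtrl 3 (0.03611). CDKN1A gained one with the block by descriptions and that term. Each of these settings also called more of all genes than the main fit. The sign changed for 9 substrates that were not called with the main settings. With library totals NOTCH1 was 0.063 and FOXM1 0.022, and with a CPM of at least 1 in 2 libraries NOTCH1 was 0.0015. With the replicate block by titles CCND1 was -0.054, NOTCH1 0.034, CDKN1A -0.054, RBL2 0.045 and FOXM1 0.023, and by descriptions MCL1 was -0.057. With the term for the library side MCL1 was -0.015. Over the leave-one-out fits the ranges were -0.19 to 0.27 (CCND1), -0.016 to 0.14 (CCND3), -0.27 to 0.64 (CDKN1A), -0.17 to 0.060 (FOXM1), -0.42 to 0.046 (JUN), -0.059 to 0.061 (MCL1), -0.33 to 0.044 (MDM2), -0.040 to 0.042 (NOTCH1) and -0.32 to 0.060 (RBL2).

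The printed intervals give the precision that 2 siFAM53C libraries allow, and for the 7 members not called they include 0.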
